A study of Mus musculus with 10 samples.

Results

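Crem, Fhl5, Rfx2, Sox30, Tbpl1, Taf7l, Mybl1, Tcfl5, Sox5 and Gtf2a1l are 10 genes whose products steer transcription in meiotic and haploid male germ cells, and they were followed here in mouse testis. They were chosen by name and found through the transcript accession of each probe, which gave 10 genes with 17 probes, of which 16 probes passed the filter on dim signals. They stood among 16739 genes that were tested and 23462 that the array names. The brightest probe stands for a gene, and its other probes are given beside it.

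R testes came from male offspring of dams held from 6.5 days post coitum to 50% of what control dams ate per day, and these pups were cross-fostered to unrelated control females. C testes came from male offspring of dams fed freely, and these pups stayed with their own mothers. All mice were C57BL/6N on regular chow after weaning, and 1 testis per mouse was taken at 6 weeks of age, with 5 arrays for R and 5 for C. Maternal diet and fostering therefore cannot be told apart. The sources used here name neither the litters nor the RNA kit used for each testis, so p-values take each mouse as an independent sample and could be too small.

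Male germ cells pass from dividing spermatogonia through a long meiotic prophase as spermatocytes and then through a haploid phase as round and elongating spermatids. MYBL1 and TCFL5 act in pachytene spermatocytes, and CREM, RFX2, SOX30 and TBPL1 act on the wave of transcription in round spermatids. Several of these proteins are germ cell versions of widely used factors: TBPL1 of the TATA-binding protein, TAF7L of a TFIID subunit and GTF2A1L of a TFIIA subunit.

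The value used throughout is the log2 signal, the log2 of a probe's processed intensity minus the 75th percentile of the same array, and a probe's level is not compared with another probe's. A call is an adjusted p under 0.05 from limma with Benjamini-Hochberg adjustment over all tested probes. The 75th percentile ran from 804 to 1019 intensity units over the arrays, and 54.6% to 65.9% of probes were well above background. The array median ran from 61.4 to 106.0 units, lowest on C replicate 2, with C replicate 5 next at 82.7. Slide 1 held 4 R and 2 C arrays (R replicates 1 to 4, C replicates 1 and 2) and slide 2 held 1 R and 3 C arrays. In whole testis, fewer cells of a type and less RNA per cell cannot be told apart.

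The windows around the start sites of the 3 members that differed are shown first, because they can be searched for motifs of several of the 10 proteins. They come from RefSeq (GRCm38.p6), run from 250 bases before to 50 bases after the start, and read 5' to 3' on the gene's strand. Rfx2 lies at chr17:56830959-56831258, Tcfl5 at chr2:180642642-180642941 and Sox5 at chr6:143947057-143947356, each on the minus strand. Capitals mark matches, on either strand, to the MYB site (CAACNG or TAACNG) and to an arm of the X-box that RFX factors bind (GTTGCC).
Rfx2: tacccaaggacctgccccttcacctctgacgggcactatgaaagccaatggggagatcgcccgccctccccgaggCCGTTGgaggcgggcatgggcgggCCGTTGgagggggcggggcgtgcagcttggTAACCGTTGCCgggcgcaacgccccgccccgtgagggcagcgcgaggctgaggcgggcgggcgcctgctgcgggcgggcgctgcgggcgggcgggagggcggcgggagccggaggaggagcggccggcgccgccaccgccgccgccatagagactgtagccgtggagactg
Tcfl5: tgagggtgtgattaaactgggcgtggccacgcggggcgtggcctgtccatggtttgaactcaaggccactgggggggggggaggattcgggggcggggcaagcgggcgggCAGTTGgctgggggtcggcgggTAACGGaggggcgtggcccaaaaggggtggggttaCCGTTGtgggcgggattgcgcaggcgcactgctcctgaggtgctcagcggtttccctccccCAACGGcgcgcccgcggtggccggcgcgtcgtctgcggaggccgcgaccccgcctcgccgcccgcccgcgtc
Sox5: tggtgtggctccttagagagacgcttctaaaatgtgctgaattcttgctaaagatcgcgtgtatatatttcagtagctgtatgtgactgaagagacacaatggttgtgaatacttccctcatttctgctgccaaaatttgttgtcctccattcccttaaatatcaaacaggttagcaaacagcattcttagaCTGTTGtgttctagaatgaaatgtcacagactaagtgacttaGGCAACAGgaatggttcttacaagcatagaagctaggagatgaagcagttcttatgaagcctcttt

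Windows of 8 of the 10 members were searched, 9 in all, and Crem and Mybl1 were not among them. The Rfx2 and Tcfl5 windows each held 4 matches to the MYB site, and 1.22% of 32851 windows in the table held at least 4. A single match is common, since 49.7% of all windows held at least 1, and the Sox5 and Gtf2a1l windows held 2 each. The X-box arm was found once each in Rfx2, Sox5 and Gtf2a1l, against 12.5% of all windows. In both Rfx2 and Sox5 it overlapped a MYB match, and the patterns share the letters CAAC (GTTG on the other strand). Among the MYB matches of Rfx2, TAACCG and CCGTTG overlapped each other. The cyclic AMP response element TGACGTCA, which CREM binds, was in none of the 9 windows and in 1.79% of all windows. The SOX core AACAAT was found 2 times in the first Fhl5 window and in 10.7% of all windows. These are matches of letters in a short window and carry no measure of binding.

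Of the 10 genes, 3 differed between R and C testes: Rfx2 and Sox5 were higher in R and Tcfl5 was lower. That is 3 of 10, against 35.6% of all 16739 genes called, 14.9% higher and 20.6% lower in R, so the share of members called was close to that of all genes. The median change of the members was 0.02, and that of all genes was -0.03. Groups did not overlap for Rfx2 and Sox5, 2 of 10 members, against 29.1% of all genes. Rfx2 alone also met the study's criterion, which adds a fold above 1.5 or under 0.66, as did 9.9% of all genes.

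**Figure D1:**
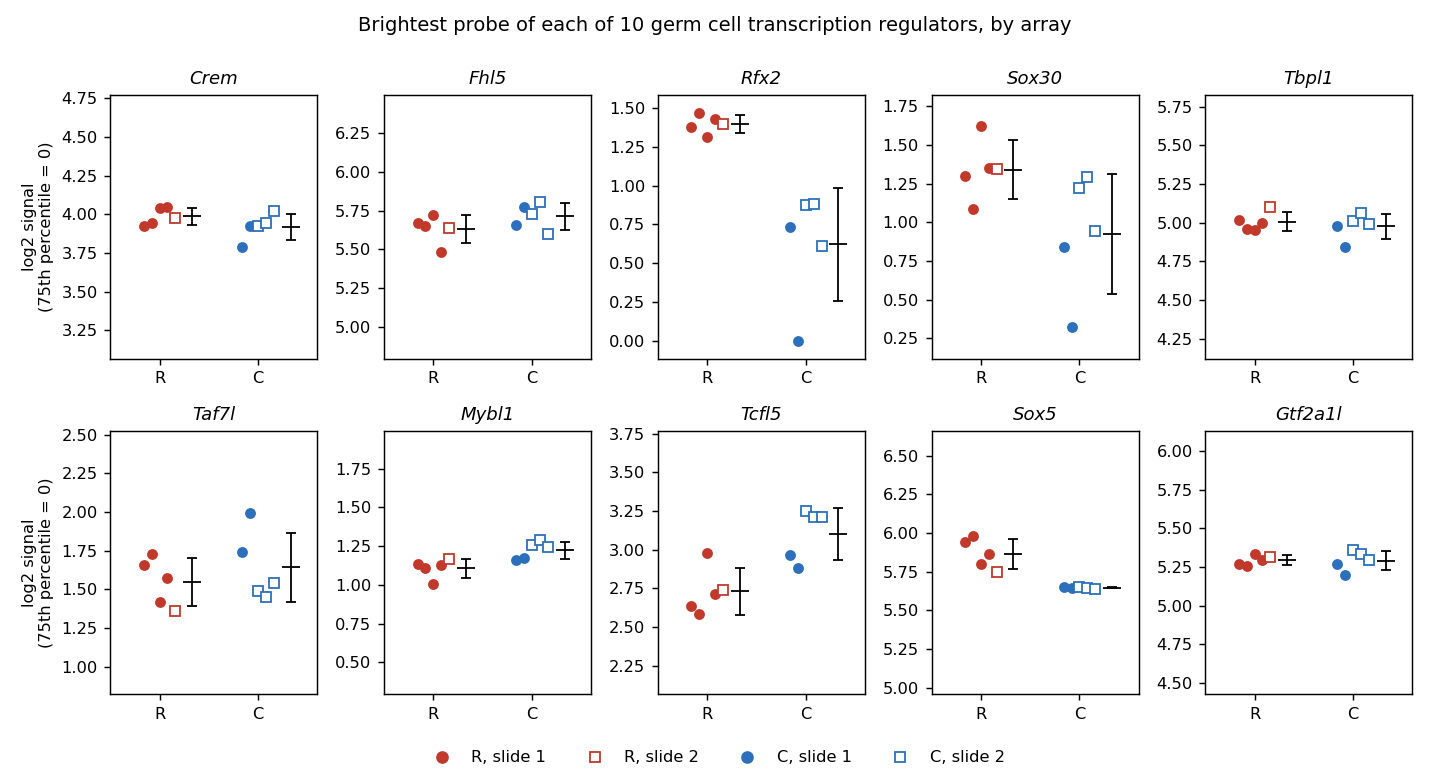
Log2 signal of the brightest probe of each of the 10 genes on each array, with R left of C; filled circles are slide 1, open squares slide 2, and the bars give the mean and SD of 5 arrays. All panels span the same log2 range. Rfx2 and Sox5 separate the groups, and Tcfl5 overlaps through 1 R array at 2.98.

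Rfx2 encodes a winged-helix factor that mouse spermatids need to build the flagellum. Its log2 signal was 1.38, 1.47, 1.32, 1.43 and 1.40 in R testes, against 0.74, -0.0033, 0.88, 0.88 and 0.61 in C testes. The R arrays lay close together above every C array, and C replicate 2 was the lowest. Rfx2 averaged 1.40 ± 0.06 in R and 0.62 ± 0.37 in C (SD, n = 5 each), a rise of 0.78 with an SE of 0.15. On the linear scale this was 1.72-fold higher in R (95% interval 1.35 to 2.18, limma, adjusted p = 0.0054). The rise was 0.62 without C replicate 2. The difference was 1.03 within slide 1 (adjusted p = 0.017) and 0.61 within slide 2, where 1 R array stood against 3 C arrays (adjusted p = 0.131).

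Tcfl5 encodes a basic helix-loop-helix factor of pachytene spermatocytes. Its log2 signal was 2.63, 2.59, 2.98, 2.71 and 2.74 in R testes, against 2.96, 2.88, 3.25, 3.21 and 3.21 in C testes. R replicate 3 reached into the range of the C group, whose 2 slide 1 arrays were its lowest. Tcfl5 averaged 2.730 ± 0.151 in R and 3.103 ± 0.168 in C (SD, n = 5 each), a change of -0.37 with an SE of 0.10. It was 1.29-fold lower in R (95% interval 1.11 to 1.51, limma, adjusted p = 0.0182). The change was -0.20 within slide 1 (adjusted p = 0.259), -0.48 within slide 2 (adjusted p = 0.111) and -0.30 with slide as a block (adjusted p = 0.0297).

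Sox5 encodes an SOXD factor with a short testis form in spermatids. Its brightest probe read 5.94, 5.98, 5.80, 5.86 and 5.75 in R testes, against 5.65, 5.65, 5.65, 5.65 and 5.64 in C testes. Every R array lay above every C array, and the C arrays were almost equal. The probe averaged 5.87 ± 0.10 in R and 5.65 ± 0.01 in C (SD, n = 5 each), 1.16-fold higher in R (95% interval 1.06 to 1.28, limma, adjusted p = 0.0213). The difference of 0.22 was 0.01 when each array's median served as the scaling point (adjusted p = 0.922), and without R replicate 1 it was 0.20 with the call lost (adjusted p = 0.0568). The difference was 0.25 within slide 1 (adjusted p = 0.0733), 0.10 within slide 2 (adjusted p = 0.514) and 0.22 with no filter on dim probes (adjusted p = 0.0683). With the array median, the median of all genes moved to -0.23, and the members' changes relative to the median gene on the 75th percentile scale were 0.81 for Rfx2, 0.25 for Sox5 and -0.35 for Tcfl5.

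A second Sox5 probe read -0.18, -0.09, -0.12, -0.16 and -0.52 in R testes, against -0.64, -0.34, -0.52, -0.53 and -0.55 in C testes. R replicate 5, the R array of slide 2, lay among the C arrays, and the other 4 R arrays lay above them all. This probe was 0.30 higher in R with an SE of 0.09 (limma, adjusted p = 0.0321), with 0.35 within slide 1 and 0.01 within slide 2. With slide as a block it was 0.23 and the call was lost (adjusted p = 0.0564). On none of the 10 arrays was the remaining Sox5 probe well above background, and it was not tested.

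Sox30, whose product drives haploid gene expression in mouse spermatids, read 1.30, 1.09, 1.62, 1.35 and 1.35 in R testes, against 0.84, 0.32, 1.22, 1.29 and 0.95 in C testes. The groups overlapped, and C replicate 2 was again the lowest array. The mean was 1.34 ± 0.19 in R and 0.92 ± 0.39 in C (SD, n = 5 each), a difference of 0.42 (95% interval 0.02 to 0.81) that was not called (limma, adjusted p = 0.0836). With slide as a block it was 0.56 (adjusted p = 0.0231), where 4 members and 51.5% of all genes were called. Within slide 1 it was 0.76 (adjusted p = 0.0316), where 2 members and 39.6% of all genes were called, and without C replicate 4 it was 0.51 (adjusted p = 0.0446). It was 0.27 without C replicate 2 and 0.21 with the array median (adjusted p = 0.251), and not called in either.

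Mybl1, the gene of A-MYB, which switches on pachytene genes in mouse spermatocytes, read 1.14, 1.11, 1.004, 1.13 and 1.17 in R testes, against 1.16, 1.18, 1.26, 1.29 and 1.24 in C testes. R replicate 5 lay between the 2 lowest C arrays, so the groups overlapped. The mean was 1.11 ± 0.06 in R and 1.22 ± 0.05 in C (SD, n = 5 each), a difference of -0.12 (95% interval -0.25 to 0.01, limma, adjusted p = 0.131). Relative to the array median the difference was -0.32 (adjusted p = 0.012), and with array weights it was -0.14 (adjusted p = 0.0302).

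Crem encodes the activator that spermatids use to turn on late genes. Its brightest probe read 3.92, 3.95, 4.04, 4.05 and 3.98 in R testes, against 3.79, 3.93, 3.93, 3.94 and 4.02 in C testes, and the groups overlapped. The difference was 0.07 with a 95% interval of -0.07 to 0.21 (limma, adjusted p = 0.408). The other 3 Crem probes differed by -0.09, -0.09 and 0.01 (adjusted p = 0.392, 0.195 and 0.978), so no probe of the gene was called. Crem was the only member among the 2266 probes of the authors' deposited table, where its log2 ratio was 0.14 (p = 0.0198, q = 0.515) in a grouping that places R replicate 1 with the controls and C replicate 5 with the test arrays. Fhl5, whose LIM protein is a coactivator of CREM in spermatids, ran from 5.48 to 5.72 in R and from 5.60 to 5.80 in C, with a difference of -0.08 (95% interval -0.23 to 0.07, limma, adjusted p = 0.365). With the array median Fhl5 was called lower in R (-0.29, adjusted p = 0.0416).

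None of the 3 members of the general transcription machinery was called. Tbpl1 read 5.02, 4.96, 4.95, 5.00 and 5.10 in R testes, against 4.98, 4.84, 5.01, 5.06 and 4.99 in C testes, a difference of 0.03 (95% interval -0.11 to 0.17, limma, adjusted p = 0.709). Its other probe differed by 0.11 (adjusted p = 0.194). Gtf2a1l, which encodes the germ cell TFIIA subunit, averaged 5.29 ± 0.03 in R and 5.29 ± 0.06 in C (SD, n = 5 each), with a 95% interval of the difference of -0.12 to 0.13 (limma, adjusted p = 0.969). Its arrays ran from 5.26 to 5.34 in R and from 5.20 to 5.36 in C. Relative to the array median the difference was -0.20 (adjusted p = 0.0474). Taf7l, an X-linked gene, ran from 1.36 to 1.73 in R and from 1.45 to 1.99 in C, a difference of -0.09 (95% interval -0.36 to 0.17, limma, adjusted p = 0.534), and -0.22 with slide as a block (adjusted p = 0.0542). Its other probe differed by -0.21 (adjusted p = 0.156) and by -0.31 with slide as a block (adjusted p = 0.021).

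**Figure D2:**
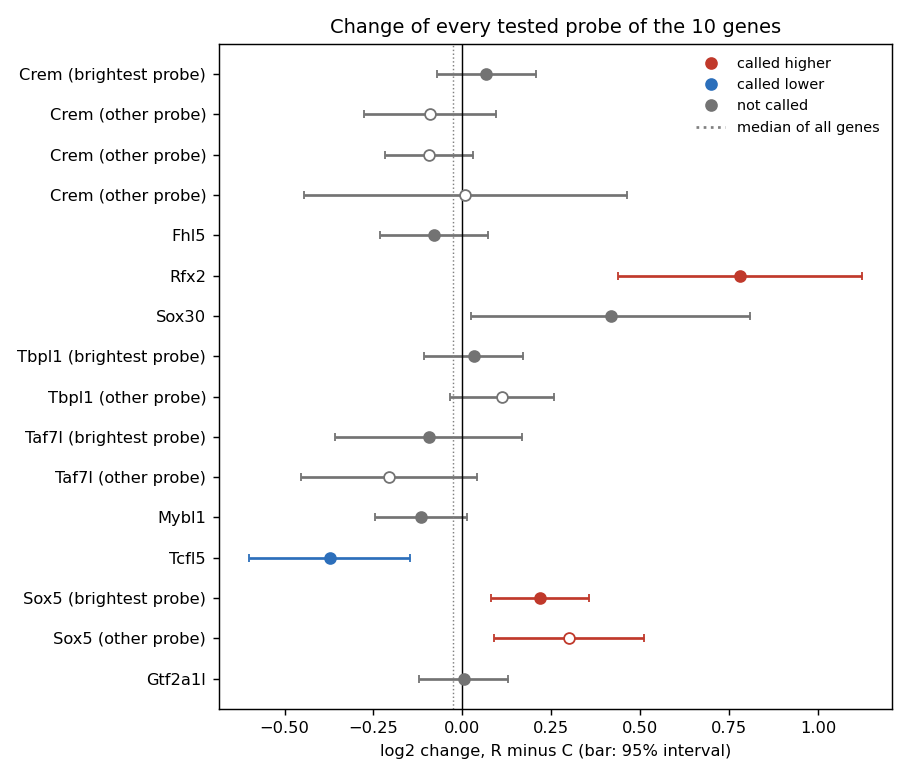
Change of each of the 16 tested probes (log2, R minus C) with its 95% interval; filled points are the brightest probe of a gene, open points its other probes, and colour gives the call. The Rfx2 probe lies farthest to the right at 0.78, and the Tcfl5 probe lies to the left at -0.37.

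C replicate 2 was the lowest C array for 5 of the 10 members, Rfx2, Sox30, Tbpl1, Tcfl5 and Gtf2a1l. Its part in those results beyond the values without it was not tested.

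The paralogues and partners of the members were measured beside them, 18 of 20 being bright enough to test. Of these, 6 were higher in R (Rfx3, Fhl3, Creb1, Sox6, Mybl2 and Rfx1) and 2 lower (Sox13 and Tbp), with a median change of 0.11, beside 35.6% of all genes called. Tbpl2 and Myb were too dim to test. Rfx3, which works with RFX2 on cilium genes, read -1.85, -1.88, -1.99, -1.87 and -1.64 in R testes, against -2.55, -2.93, -2.52, -2.48 and -2.74 in C testes, with no overlap. That is 0.80 higher in R (limma, adjusted p = 0.00142), and a second Rfx3 probe differed by 0.15 (adjusted p = 0.45). Rfx1 was 0.47 higher (adjusted p = 0.0473), and 0.64 with slide as a block (adjusted p = 0.0057). Of the 10 fits that left out 1 array, the Rfx1 call held in 3, those without R replicate 2, C replicate 3 or C replicate 4 (adjusted p of up to 0.102 in the others), and with the array median the difference was 0.26 (adjusted p = 0.137). Rfx4, Rfx5 and Rfx7 differed by 0.17, 0.01 and 0.22 (adjusted p = 0.276, 0.983 and 0.372).

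Sox6, the SOXD gene most like Sox5, read 0.47, 0.39, 0.61, 0.54 and 0.56 in R testes, against 0.12, -0.48, 0.28, 0.24 and 0.05 in C testes. Each R array lay above each C array, and the difference was 0.47 (limma, adjusted p = 0.0215; with the array median 0.26, adjusted p = 0.0534). Sox13, the other SOXD gene, was -0.34 (adjusted p = 0.0408), a call that held without C replicate 2 or C replicate 4 and was lost without each of the other 8 arrays (adjusted p of up to 0.0881). Fhl3, a LIM gene of the Fhl5 family, was 0.65 higher in R (adjusted p = 0.0023). Fhl4, a testis LIM gene in mice, differed by 0.11 (adjusted p = 0.241), Fhl1 by -0.46 (adjusted p = 0.0544) and Fhl2 by -0.42 (adjusted p = 0.108). With slide as a block Fhl1 and Fhl2 were called lower in R, at -0.64 (adjusted p = 0.0069) and -0.65 (adjusted p = 0.0044), and both were also called lower within slide 1 and with the array median.

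Creb1, the widely expressed relative of Crem, read -1.28, -1.26, -1.23, -1.26 and -1.52 in R testes, against -1.62, -2.04, -2.03, -1.97 and -1.79 in C testes, 0.58 higher in R (limma, adjusted p = 0.00306). Its other probes differed by 0.24 (adjusted p = 0.0165) and -0.30 (adjusted p = 0.0811), and the mean of its probes was 0.17 (adjusted p = 0.0649). Atf1 differed by 0.10 (adjusted p = 0.296), with another probe called at -0.50. Mybl2, the B-MYB gene of dividing cells, was 0.35 higher in R (adjusted p = 0.0259), a call lost without R replicate 1, R replicate 4, R replicate 5 or C replicate 1 (adjusted p of up to 0.0596) and with the array median (0.14, adjusted p = 0.189). Tbp, which encodes the TATA-binding protein, was -0.15 (adjusted p = 0.0458) with other probes at -0.04 and 0.16. The Tbp call was lost with slide as a block (-0.13, adjusted p = 0.0609) and with the mean of its probes (-0.01, adjusted p = 0.9), and it held with the array median (-0.36, adjusted p = 0.0089). Of the 10 fits that left out 1 array it held in 2, those without C replicate 1 or C replicate 2 (adjusted p of up to 0.0989 in the others). By their brightest probes Taf7, Gtf2a1 and Gtf2a2 differed by -0.13, 0.10 and -0.18 and were not called (adjusted p = 0.469, 0.169 and 0.0872). Other probes were called lower in R, at -0.39 for Gtf2a1 (adjusted p = 0.0084) and at -0.35 and -0.45 for Gtf2a2 (adjusted p = 0.0089 and 0.0094). The mean of the Gtf2a2 probes was -0.33 (adjusted p = 0.0109), and Taf7 was -0.27 with slide as a block (adjusted p = 0.0533).

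Within slide 1, Rfx3, Fhl3, Creb1 and Sox6 were each called higher in R. Within slide 2 they differed by 0.94, 0.64, 0.41 and 0.37 (limma, adjusted p = 0.105, 0.115, 0.167 and 0.19), where 0 genes were called and 3517 had an unadjusted p under 0.05.

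**Figure D3:**
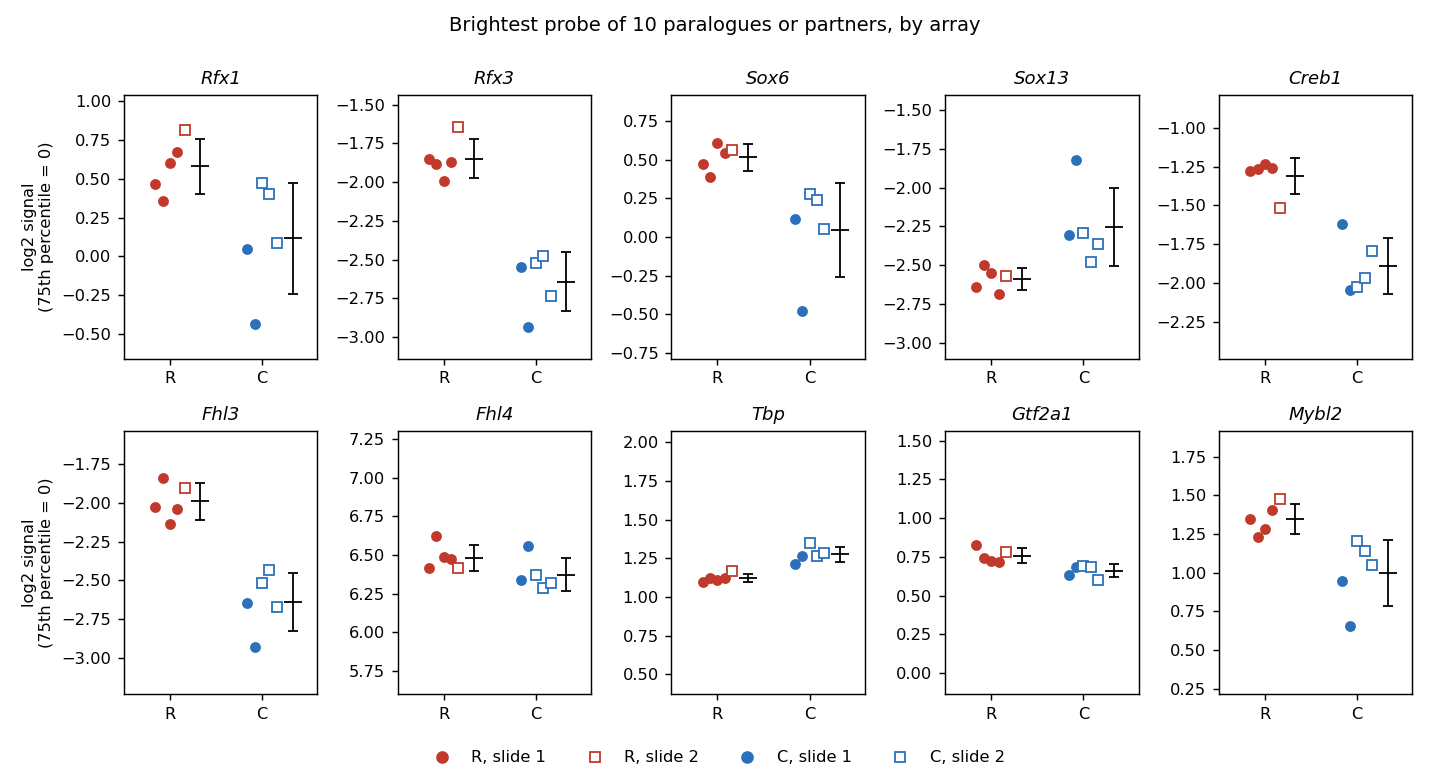
Log2 signal of the brightest probe of 10 paralogues or partners on each array, R left of C, with mean and SD of 5 arrays; symbols mark the slides. All panels span the same log2 range. Rfx3, Fhl3, Creb1, Sox6, Mybl2 and Gtf2a1 were higher on every R array than on any C array, and Sox13 and Tbp were lower. Groups did not overlap for 29.1% of all genes.

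Genes that depend on or are bound by CREM or its coactivator, and gene classes that MYBL1 and RFX factors bind, were described by their counts. Of 16 genes linked to CREM, 1 was higher and 2 lower, with a median of 0.06. That is 18.8% called, against 35.6% of all genes. Ace, whose testis form is read from a CREM promoter, was 0.23 higher (limma, adjusted p = 0.0234; 0.02 with the array median, adjusted p = 0.826; lost without R replicate 3 or R replicate 5). Odf1, of the sperm tail's outer dense fibres, was -0.32 (adjusted p = 0.0327) and Pgk2, the germ cell glycolysis kinase, was -0.20 (adjusted p = 0.0364). The Odf1 call was lost without R replicate 1, 3, 4 or 5 or C replicate 1 (adjusted p of up to 0.0769), and in the fits that left out 1 array the Pgk2 call held in 4, those without R replicate 5 or C replicate 1, 2 or 4 (adjusted p of up to 0.0882 in the others). The Pgk2 call was also lost with slide as a block (-0.17, adjusted p = 0.0569), and it held with the array median (-0.41, adjusted p = 0.0096).

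Of 12 genes linked to MYBL1, which serve the piRNA pathway, 3 were lower, 0 were higher, and the median was -0.09. That is 25% called, against 35.6% of all genes, and 20.6% of all genes were lower. Asz1, of the piRNA machinery, was -0.67 (limma, adjusted p = 0.00254), with its other probe at 0.03. Ddx4, the germ cell RNA helicase, read 4.41, 4.42, 4.36, 4.48 and 4.41 in R testes, against 4.55, 4.69, 4.58, 4.63 and 4.69 in C testes, with no overlap and a change of -0.21 (adjusted p = 0.0175). Mov10l1, a piRNA helicase, was -0.28 (adjusted p = 0.0361), a call lost with slide as a block (-0.24, adjusted p = 0.0637) and held with the array median (-0.49, adjusted p = 0.0088). Of the 10 fits that left out 1 array, the Mov10l1 call held in 3, those without R replicate 5 or C replicate 2 or 5 (adjusted p of up to 0.074 in the others).

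The 22 cilium transport genes (intraflagellar transport, dynein-2 and BBSome) are a class that RFX factors control. Of these, 3 were higher (Ift140, Ift122 and Ift46), 2 were lower (Dync2li1 and Ift80) and the median was -0.01. That is 22.7% called, against 35.6% of all genes. Ift140 and Ift122, both of the retrograde complex, were 0.33 and 0.29 higher in R (limma, adjusted p = 0.00908 and 0.011), and 0.13 and 0.08 with the array median (adjusted p = 0.183 and 0.424). Dync2li1, a dynein-2 subunit, was -0.43 (adjusted p = 0.00513), and Ift80, of the anterograde complex, was -0.40 (adjusted p = 0.0071). A second Ift140 probe was 1.02 higher, and Ift46 was 0.23 higher (adjusted p = 0.0263). The other probe of Ift80 differed by -0.11 (adjusted p = 0.439) and that of Ift46 by -0.03 (adjusted p = 0.778), and the mean of the Ift46 probes was 0.10 (adjusted p = 0.291). Ift46 was 0.25 with slide as a block (adjusted p = 0.0187) and 0.02 with the array median (adjusted p = 0.872). Of the 10 fits that left out 1 array, the Ift46 call held in 4, those without R replicate 2 or C replicate 2, 3 or 4 (adjusted p of up to 0.0639 in the others). With the array median as the scaling point, the median of all genes moved to -0.23. On that scale 8 of the 22 genes were called, 0 higher and 8 lower. The share of all genes called on that scale is not given here, so this count is not read as particular to these genes.

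Among 28 other regulators of spermatocytes and spermatids, 2 were higher and 8 lower, with a median of -0.07. That is 35.7% called, against 35.6% of all genes. The 2 higher were Chd5, a chromatin remodeller of spermatids, at 0.83, and the nuclear receptor gene Nr6a1 at 0.32. Ythdc2, a meiotic RNA helicase, read -2.41, -2.52, -2.19, -2.28 and -2.28 in R testes, against -1.58, -1.19, -1.51, -1.40 and -1.16 in C testes, a change of -0.97 with no overlap (limma, adjusted p = 0.000987). The Nr6a1 call was lost without R replicate 1, 2, 3 or 4 or C replicate 5 (adjusted p of up to 0.0795) and with the array median (0.11, adjusted p = 0.282). Stra8, a switch into meiosis, was -0.78 (adjusted p = 0.00253). Meioc, a partner of YTHDC2, was -0.52 and Lin9, of the MuvB complex, was -0.59, but a second probe of each was called higher, at 0.49 and 0.69.

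Markers of the cell types in testis were counted in the same way, beside 35.6% of all genes called, 14.9% higher and 20.6% lower. Of 12 early meiosis markers 1 was higher (Sycp2, 0.54) and 7 lower, with a list mean of 1.77 to 1.85 in R and 2.10 to 2.35 in C. Of 15 Sertoli cell markers 1 was higher (Rhox8, 0.91) and 13 lower, with a list mean of 1.88 to 2.05 in R and 2.14 to 2.86 in C. For the stages that use most of the 10 regulators, 2 of 12 late spermatocyte markers (Sycp1 and Pgk2), 1 of 12 round spermatid markers (Zpbp) and 2 of 12 elongating spermatid markers (Oaz3 and Odf1) were lower, 0 were higher, and the medians were 0.04, -0.02 and -0.02. The member Tbpl1 is itself among the late spermatocyte markers. Most elongating spermatid markers (Prm1, Prm2, Tnp1, Tnp2, Odf1, Smcp, Akap4 and Gapdhs) are also CREM-linked genes, so those lists are not separate evidence. Of 11 spermatogonia markers 1 was higher and 4 lower, of 9 Leydig cell markers 0 and 4, of 6 peritubular markers 1 and 1, of 10 macrophage markers 0 and 6, and of 7 endothelial markers 4 and 0. Their list means ran from -1.05 to -0.94 in R and -0.90 to -0.51 in C for spermatogonia, and from -2.69 to -1.98 in R and -1.90 to -1.34 in C for macrophages. The other 3 lists ran from 0.77 to 1.31 in R and 0.93 to 1.84 in C for Leydig cells, from 0.19 to 0.86 in R and 0.19 to 0.60 in C for peritubular cells, and from -2.59 to -2.38 in R and -3.20 to -2.73 in C for endothelium. Nanos2, Amh and Tie1 were too dim to test, as were all 7 epididymis markers. Sycp2, Rhox8, Sycp1, Zpbp, Oaz3, Chd5, Nr6a1 and Ift46 were picked out after their values were seen. The part of these shifts in the member results was not tested.

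**Figure D4:**
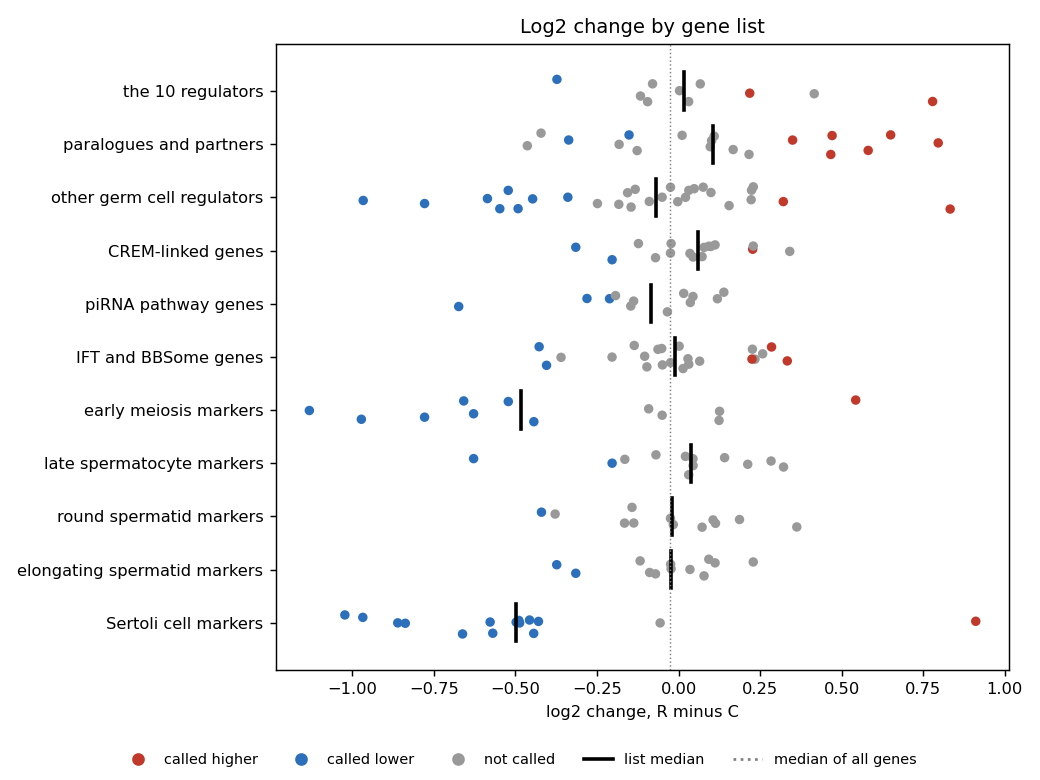
Log2 change (R minus C) of every tested gene in 11 lists. The list median is a black bar and the median of all genes a dotted line at -0.03. Some genes, Tbpl1, Pgk2, Odf1, Stra8 and Sycp1 among them, stand in more than 1 list. Early meiosis and Sertoli cell markers have medians of -0.48 and -0.50, and the 10 regulators have a median of 0.02.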

How the data were processed

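Testis RNA of 10 mice was hybridised to 1-colour Agilent mouse arrays, 1 array per mouse. The scanner files that the authors deposited hold spot intensity values and other columns, which flag spots for background, saturation or as outliers. They were made with Agilent Feature Extraction, version 12.0.3.1 in the submitters' processing notes. The processed intensity is, per the file headers, corrected for background and spatial trend but not scaled between arrays. A table of the authors' own comparison was deposited too. It gives 2266 probes with a scaled intensity for each array. The authors made its log2 ratio from the means of their test and control sides and deposited a p-value and a q-value beside it. It also has 10 unused columns of per-sample values. R replicate 1 counts as a control and C replicate 5 as a test array there, against the group labels, which were followed here.

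After control and outlier spots were removed, spots of a probe were averaged and the 75th percentile of each array was subtracted on the log2 scale. A probe was tested if well above background on 5 or more arrays (33852 of 56605 probes). Accessions named 33767 probes, and no spot was saturated. The test was limma (version 3.58.1, R 4.3.3) with lmFit and eBayes, 2-sided, adjusted by Benjamini-Hochberg. On simulated data of 33852 probes, with 200 changed, it recovered 71.7% of 2-fold and 95.4% of 4-fold changes. The simulation held no slide effect and no change under 2-fold, and all member changes were under 2-fold. The files used hold median rather than mean spot signals, so normexp (offset 50) ran on medians.

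The members and lists were chosen with earlier results of these data known. Named genes were all members, their paralogues and partners, and up to 4 called genes of smallest p per linked list, and called genes behind counts of 5 or fewer were added after their values were seen. The 23 alternatives covered background correction, scaling, filter, slide, probe choice, weights, trend, each array left out and the table's grouping. The number of arrays limits the precision.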

Additional observations from a re-analysis of the deposited data

Results flagged for a closer look

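The second Sox5 probe of R replicate 5 read -0.52, while the next lowest R array read -0.18 and the highest -0.09. Its gap to the nearest R array, divided by the range of the R group, was 0.786, above Dixon's critical value for 5 arrays. Of 32 groups of member probes examined, 1 stood out in this way, and chance alone picks out about 1 in 20. R replicate 5 is the R array on slide 2, and the brightest Sox5 probe read 5.75 on it, the lowest of the R group. The cause was not tested.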

How the results depend on the processing

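Of 23 alternatives, Rfx2 was called in 21, Tcfl5 in 19 and Sox5 in 16. With the array median as reference, the median of all genes moved to -0.23. The share of all genes called on that scale is not given here, so the counts on it have no background beside them. Members called were 5 (1 higher, 4 lower) with the array median as reference, 0 within slide 2, 0 in the grouping of the authors' table and 1 without the 2 arrays grouped otherwise, and 2 to 4 with 1 array left out, the lowest without R replicate 1 and the highest without C replicate 4. Genes called were 3785 with no filter, 0 within slide 2, 0 in the table's grouping and 2661 without those 2 arrays, and 4102 to 6406 with 1 array left out. At an unadjusted limma p under 0.05, slide 2 gave 3517 genes and 2 members, and the table's grouping gave 1285 genes and 0 members. In the table's grouping Rfx2 was 0.47 (adjusted p = 0.461), Tcfl5 -0.14 (0.582) and Sox5 0.10 (0.549). Without those 2 arrays Tcfl5 was -0.32 (0.0897) and Sox5 0.20 (0.0972). Genes linked to MYBL1 called were 6 with the array median, 1 with no filter and 1 within slide 1 (39.6% of all genes). Cilium transport genes called were 8 with the array median and 9 with slide as a block (51.5% of all genes). With no filter 5 paralogues and partners and 0 CREM-linked genes were called (4 at an unadjusted p under 0.05). Within slide 2 the counts were 0 in all 5 lists, and at an unadjusted p under 0.05 they were 7 paralogues and partners, 6 other regulators, 1 CREM-linked, 1 MYBL1-linked and 2 cilium transport genes. Chosen after seeing the data, leaving out C replicate 2 gave 7 paralogues and partners, 10 other regulators, 4 CREM-linked, 3 MYBL1-linked and 7 cilium transport genes called. The number of all genes called in that fit is not given here beyond the range of 4102 to 6406 over the 10 fits.

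Across the alternatives, member values kept their direction and side of the threshold 198 times, lost a call 13 times, gained one 6 times and turned direction 13 times, and those of the other named genes did so 712, 170, 15 and 23 times. Some directions turned, all but 1 of them for genes with no call. With the array median Crem was -0.14, Tbpl1 -0.18, Gtf2a1l -0.20, Atf1 -0.11, Fhl4 -0.10, Gtf2a1 -0.11, Rfx4 -0.039 and Rfx5 -0.20. With the mean of a gene's probes Crem was -0.028, Atf1 -0.069, Gtf2a1 -0.15 and Lin9, called lower by its brightest probe, 0.052. With array weights Tbpl1 was -0.0081, Taf7l 0.040, Gtf2a1l -0.038 and Rfx5 -0.40. Rfx5 was -0.12 with normexp, -0.23 with quantile normalization, -0.19 within slide 2, -0.030 in the table's grouping and -0.012 without the 2 arrays. Rfx7 was -0.0030 within slide 1, -0.22 in the table's grouping and -0.0018 without the 2 arrays, and Gtf2a1l was -0.013 within slide 2. With 1 array left out, Gtf2a1l ran from -0.019 to 0.020, Tbpl1 from -0.0023 to 0.052 and Rfx5 from -0.25 to 0.35. The cause was not tested. No paired analysis was possible because the labels give no pairing, and replicate numbers follow the order of the samples.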
